A study of Rattus norvegicus with 10 samples.

Results

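Cytochrome P450 genes of the rat kidney cortex are described here across 10 libraries. They are the entries of the deposited gene table whose name is Cyp followed by a digit, without Cyp27b1, Cyp24a1 and Cyp51. This gives 70 of the 32545 entries. The arachidonate hydroxylase and epoxygenase subfamilies Cyp4a, Cyp4f, Cyp2c and Cyp2j hold 23 of them and are given apart from the other 47. The study sequenced polyadenylated RNA from the left kidney cortex of male rats on the Dahl salt-sensitive background, a line bred for blood pressure that climbs when salt is eaten. The rats were 11 to 12 weeks old when urine was collected, and arterial blood was drawn and the kidneys were flushed with saline before they were frozen. Of the 10 libraries, 5 had the genotype Kcnj16_m1, a mutant of the potassium channel subunit gene Kcnj16 that the series' title calls a knockout. The other 5 had the genotype SS_WT, the same strain without the mutation. The labels say neither how the allele was made nor whether the libraries of a genotype came from separate litters.

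Cytochrome P450 enzymes are haem proteins that insert an oxygen atom into lipids, steroids, vitamins and drugs, with electrons passed on by P450 reductase in the endoplasmic reticulum or by adrenodoxin in mitochondria. In the kidney the Cyp4a and Cyp4f hydroxylases turn arachidonic acid into 20-HETE, a lipid that constricts renal arterioles and inhibits sodium transport in the tubule. The Cyp2c and Cyp2j epoxygenases turn the same fatty acid into epoxyeicosatrienoic acids, which relax vessels and also act on tubular sodium channels. Both branches have long been studied in the Dahl salt-sensitive rat, where the renal supply of these lipids is tied to blood pressure. Most of these enzymes are made by the proximal tubule, and several rat forms depend on male hormone patterns.

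Values are FPKM, fragments scaled to gene length and to the size of the library, as the authors deposited them, so levels can be compared between genes. The reads behind them came to between 16361516 and 23385968 per library. Kcnj16 itself stood between 307 and 339 FPKM in Kcnj16_m1 and between 323 and 372 FPKM in SS_WT, so its transcript level does not check the genotype labels. The summed level of 17 proximal tubule markers was 7331 to 8012 FPKM in Kcnj16_m1 and 5319 to 6649 FPKM in SS_WT, and that of 18 tubular injury markers was 475 to 558 FPKM in Kcnj16_m1 and 882 to 3701 FPKM in SS_WT. SS_WT library 3 stood apart, with the lowest proximal tubule sum and the highest injury sum of the 10 libraries. Spp1 was the largest part of the injury sum in SS_WT, at 390 to 2714 FPKM, with the highest value in library 3. Of the other injury markers, named after their values were seen, Havcr1 and Lcn2 were highest of SS_WT in library 3. Prom1 and Krt19 were lowest of SS_WT there, at 12.6 and 4.69 FPKM. Kcnj16_m1 library 2 held 18.8 FPKM of the hepatocyte transcript Alb, where the other libraries held at most 2.85. In bulk cortex, fewer cells of a type and less RNA per cell cannot be told apart.

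Among the 70 P450 entries, 30 reached 0.5 FPKM in at least 5 libraries and were tested (10 arachidonate, 20 other). Differences are Kcnj16_m1 minus SS_WT on the log2(FPKM + 0.5) scale, which understates changes of low genes, and were tested with limma over all 13971 genes that met this filter. A call is a Benjamini-Hochberg adjusted p under 0.05. Transcripts of 9 P450 genes rose and that of 1 fell, 10 of 30 or 33.3%. Of all tested genes, 28.5% were called, 14.6% higher and 14% lower, so the P450 share lay near that of all genes and is not a result about P450 genes. The groups did not overlap for 8 of the 30, all higher (26.7%). Over all tested genes 19.2% did not overlap, 9.88% higher and 9.34% lower. The median log2 difference was 0.16 over the 30 P450 genes and 0.0079 over all tested genes. Of the arachidonate members 3 rose and 1 fell, with a median of -0.06, which was 0.16 when SS_WT library 3 was left out. Of the other members 6 rose and none fell, with a median of 0.21. At an unadjusted limma p under 0.05, 10 of these 20 other members passed, as did 5745 of all 13971 tested genes. Cyp1a1 and Cyp7b1 were among the 10, with negative differences.

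**Figure D1:**
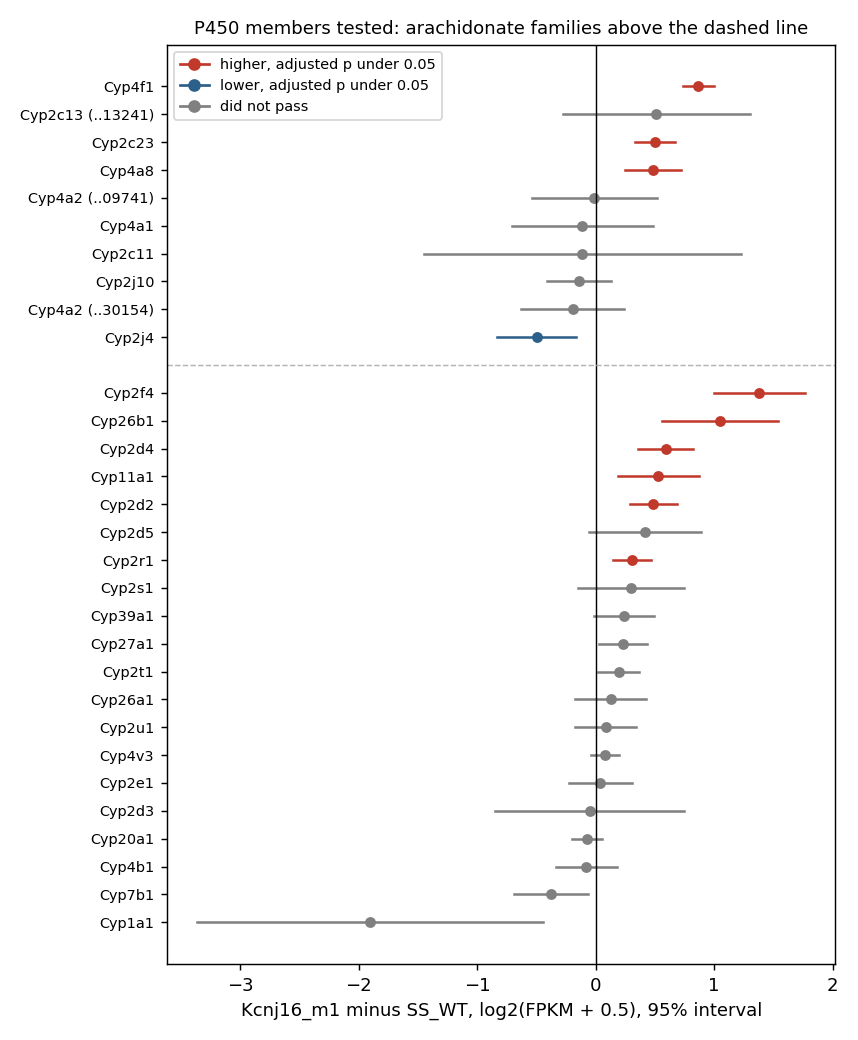
Log2 difference in FPKM (Kcnj16_m1 minus SS_WT, x axis) for the 30 P450 genes tested, with the arachidonate subfamilies above the dashed line. Points are limma estimates on log2(FPKM + 0.5) with 95% intervals over 5 libraries a group, and colours mark the 9 genes that rose, the 1 that fell and the 20 that did not pass.

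A handful of genes held most of the P450 RNA. One of the 2 entries named Cyp4a2 held 43.7% of the summed P450 FPKM over the 10 libraries, and Cyp2c23 held 31.8%. The arachidonate subfamilies together held 89.4%, of which Cyp4a held 53.7% and Cyp2c 33.2% of the P450 sum, while Cyp4f held 2.42% and Cyp2j 0.145%. The Cyp4f sum was 121 ± 3.39 FPKM in Kcnj16_m1 and 66.6 ± 5.69 FPKM in SS_WT (SD, n = 5 each), and the Cyp2c sum was 1498 ± 45.0 FPKM in Kcnj16_m1 and 1069.7 ± 106 FPKM in SS_WT. For these 2 sums every Kcnj16_m1 library was above every SS_WT library. The Cyp4a sum was 1969.8 ± 308 FPKM in Kcnj16_m1 and 2184 ± 686 FPKM in SS_WT, with overlapping groups. The other 47 P450 entries summed to 437 ± 14.1 FPKM in Kcnj16_m1 and 381 ± 13.8 FPKM in SS_WT, again without overlap. These sums were not tested.

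**Figure D2:**
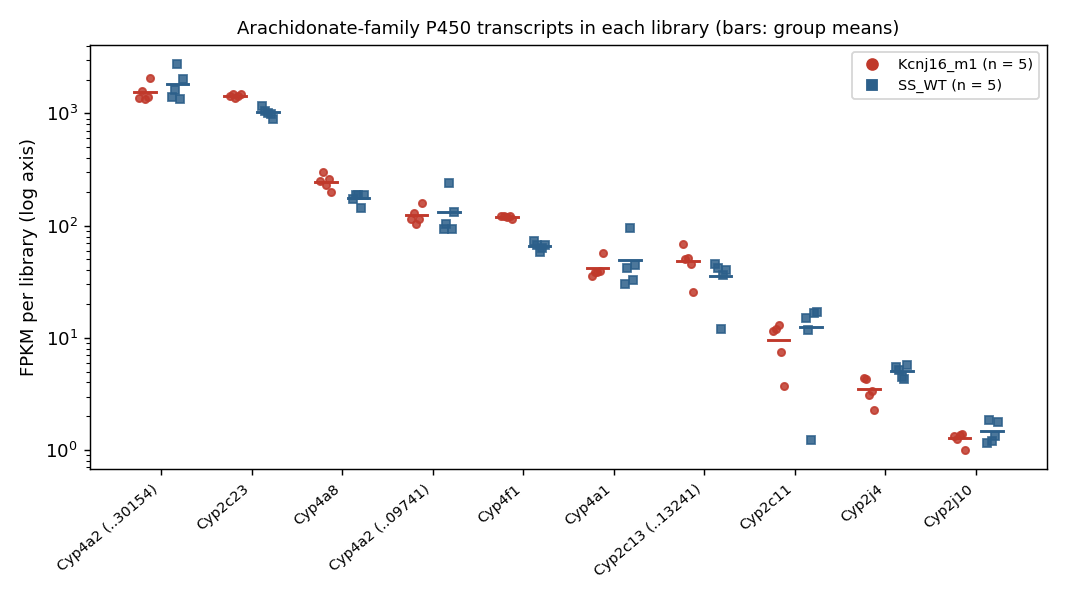
FPKM of the 10 arachidonate-family P450 genes tested, in each of 5 Kcnj16_m1 and 5 SS_WT libraries, on a log axis with bars at the group means. Cyp4f1, Cyp2c23 and Cyp4a8 separate the groups with Kcnj16_m1 above, Cyp2j4 lies lower in Kcnj16_m1 with a small overlap, and 1 SS_WT library stands far from its group for Cyp2c11 and Cyp4a1.

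Cyp4f1, a rat hydroxylase of arachidonic acid and of leukotriene B4, was the P450 gene with the smallest adjusted p. Its transcript (ENSRNOG00000004786, chr7:15179467-15190796, minus strand, in the coordinates of the deposited table, whose build the labels do not name) stood at 122, 122, 119, 122 and 115 FPKM in Kcnj16_m1 libraries 1 to 5, against 73.5, 66.7, 58.3, 63.1 and 67.0 FPKM in SS_WT libraries 1 to 5. The lowest Kcnj16_m1 library was above the highest SS_WT library. The log2 difference was 0.87 ± 0.06 (SE; limma adjusted p = 2.20e-05), and it was called under all 21 alternative settings, between 0.82 and 0.93. The mean was 1.82 times higher in Kcnj16_m1 than in SS_WT. The other 8 Cyp4f entries did not meet the filter, and the most abundant of them, Cyp4f17, named after its values were seen, reached 0.450 FPKM on average in Kcnj16_m1 and 0.424 FPKM in SS_WT. The 250 bases before the Cyp4f1 start are shown because this member separated the groups most clearly. They are from RefSeq on GRCr8, chr7:12672554-12672803, minus strand, 5′ to 3′, with capitals at ATTAAC and CACGC, which read GTTAAT and GCGTG on the opposite strand.
Cyp4f1: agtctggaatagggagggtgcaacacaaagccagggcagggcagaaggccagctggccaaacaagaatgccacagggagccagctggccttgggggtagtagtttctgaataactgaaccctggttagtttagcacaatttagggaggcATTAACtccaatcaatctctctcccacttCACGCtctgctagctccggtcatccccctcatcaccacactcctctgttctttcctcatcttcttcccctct

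The Cyp4a hydroxylases, the classical makers of 20-HETE and well-known PPAR alpha targets in rodents, had 1 of 4 entries that rose and 3 that did not pass. Cyp4a8, a kidney form of the subfamily, stood at 248, 298, 232, 258 and 199 FPKM in Kcnj16_m1 libraries 1 to 5, against 172, 189, 186, 145 and 186 FPKM in SS_WT libraries 1 to 5. Its groups did not overlap, although the lowest Kcnj16_m1 library was close to the highest SS_WT one. Cyp4a8 rose by 0.49 ± 0.11 on the log2 scale (SE; limma adjusted p = 0.00771), and was called under all 21 alternatives, between 0.41 and 0.58.

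The more abundant Cyp4a2 entry (ENSRNOG00000030154), the main renal hydroxylase gene of male rats, stood at 1376, 1592, 1357, 1403 and 2059 FPKM in Kcnj16_m1 libraries 1 to 5, against 1388, 1615, 2762, 1343 and 2030.2 FPKM in SS_WT libraries 1 to 5. The groups overlapped fully, and SS_WT library 3 and Kcnj16_m1 library 5 were the highest of their groups. Its difference was -0.19 ± 0.20 (SE; 95% interval -0.63 to 0.24, limma adjusted p = 0.493), and it was -0.03 without SS_WT library 3. Cyp4a1, the peroxisome proliferator-induced form best known from liver, stood at 35.8, 38.6, 38.5, 39.6 and 56.7 FPKM in Kcnj16_m1 libraries 1 to 5, against 30.2, 42.1, 95.8, 32.5 and 44.4 FPKM in SS_WT libraries 1 to 5. The same 2 libraries were again the highest. The second Cyp4a2 entry (ENSRNOG00000009741) averaged 124 ± 21.5 FPKM in Kcnj16_m1 and 132 ± 62.1 FPKM in SS_WT, and SS_WT library 3 was its highest library at 239 FPKM. Without SS_WT library 3 the difference was 0.16 for Cyp4a1 (-0.11 with all libraries) and 0.23 for this entry (-0.01 with all libraries), and neither passed. The second entry lies beside Cyp4a1 in the table, where RefSeq on GRCr8 lists Cyp4a3. The identity of that locus was not tested, and reads of such close copies may be divided between entries. The 250 bases before the starts of the member that rose and of the most abundant one are shown, from RefSeq on GRCr8, Cyp4a8 at chr5:133970227-133970476 and Cyp4a2 at chr5:134170909-134171158, both on the minus strand. Capitals mark AGGTCA, found in the Cyp4a2 window and not in that of Cyp4a8.
Cyp4a8: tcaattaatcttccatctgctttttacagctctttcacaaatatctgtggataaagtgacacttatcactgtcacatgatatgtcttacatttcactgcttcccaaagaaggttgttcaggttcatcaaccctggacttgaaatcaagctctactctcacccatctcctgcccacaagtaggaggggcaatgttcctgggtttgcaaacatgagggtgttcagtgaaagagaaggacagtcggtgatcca
Cyp4a2: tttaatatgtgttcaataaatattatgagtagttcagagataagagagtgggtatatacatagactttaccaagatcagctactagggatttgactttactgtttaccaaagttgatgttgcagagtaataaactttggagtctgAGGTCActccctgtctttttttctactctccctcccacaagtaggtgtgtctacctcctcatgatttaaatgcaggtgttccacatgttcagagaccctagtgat

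Cyp2c23, the principal arachidonate epoxygenase of the rat kidney, rose, while the other 2 tested Cyp2c entries did not pass. Its transcript (ENSRNOG00000013291, chr1:263778516-263803150, minus strand, in the table's coordinates) stood at 1445, 1481, 1366, 1422 and 1487 FPKM in Kcnj16_m1 libraries 1 to 5, against 1162, 1061, 1005, 997 and 884 FPKM in SS_WT libraries 1 to 5. The Kcnj16_m1 libraries lay close together and all above SS_WT. The mean was 1.41 times higher in Kcnj16_m1, with a log2 difference of 0.50 ± 0.08 (SE; limma adjusted p = 0.00130) and calls under all 21 alternatives, between 0.45 and 0.67.

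Cyp2c11, a male-type rat P450 with epoxygenase activity, differed far more within the groups than between them. It stood at 11.4, 11.9, 13.1, 7.49 and 3.71 FPKM in Kcnj16_m1 libraries 1 to 5, against 15.0, 11.7, 1.23, 16.8 and 17.2 FPKM in SS_WT libraries 1 to 5. SS_WT library 3 and Kcnj16_m1 library 5 were the lowest of their groups. The log2 difference was -0.11 ± 0.61 (SE; 95% interval -1.45 to 1.23, limma adjusted p = 0.911), and without SS_WT library 3 it was -0.75 without a call. The more abundant Cyp2c13 entry (ENSRNOG00000013241), named for another male-type form, averaged 48.4 ± 15.4 FPKM in Kcnj16_m1 and 35.4 ± 13.5 FPKM in SS_WT (difference 0.51, limma adjusted p = 0.307). SS_WT library 3 was also its lowest library, at 12.0 FPKM, and without it the difference was 0.17. In the table this entry follows Cyp2c11, where RefSeq on GRCr8 lists Cyp2c24, while RefSeq places Cyp2c13 after Cyp2c12 like the table's second Cyp2c13 entry. Which gene its reads belong to was not tested. Sequences before the starts of Cyp2c23 (250 bases, chr1:252863068-252863317, minus strand) and Cyp2c11 (100 bases, chr1:246175116-246175215, plus strand) contrast the member that rose with the one that varied between libraries. They are from RefSeq on GRCr8, and capitals mark TATAAA.
Cyp2c23: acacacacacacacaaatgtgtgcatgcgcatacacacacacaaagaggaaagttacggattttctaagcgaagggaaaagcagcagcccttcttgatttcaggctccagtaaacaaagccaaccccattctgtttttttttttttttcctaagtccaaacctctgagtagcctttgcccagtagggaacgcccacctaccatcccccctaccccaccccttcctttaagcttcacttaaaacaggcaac
Cyp2c11: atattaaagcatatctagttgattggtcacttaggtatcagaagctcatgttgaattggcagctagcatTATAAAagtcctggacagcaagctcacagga

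Cyp2j4, a rat epoxygenase first known from intestine, was the 1 tested P450 gene that fell. It stood at 4.36, 4.30, 3.08, 3.36 and 2.27 FPKM in Kcnj16_m1 libraries 1 to 5, against 5.50, 5.17, 4.43, 4.29 and 5.72 FPKM in SS_WT libraries 1 to 5. The groups overlapped by a narrow margin, with Kcnj16_m1 libraries 1 and 2 at the level of SS_WT libraries 3 and 4. The log2 difference was -0.50 ± 0.15 (SE; limma adjusted p = 0.0304), and it was called under 14 of 21 alternatives. The call was lost without Kcnj16_m1 library 3 or 4 or without SS_WT library 1, 2 or 5 (adjusted p 0.0537 to 0.0702), with no filter on low values (adjusted p = 0.0530) and without SS_WT libraries 1 and 2 together (adjusted p = 0.115). Cyp2j10, the other Cyp2j entry, averaged 1.27 ± 0.157 FPKM in Kcnj16_m1 and 1.46 ± 0.319 FPKM in SS_WT and did not pass (limma adjusted p = 0.424). The 250 bases before the Cyp2j4 start, shown because it was the member that fell, are from RefSeq on GRCr8, chr5:116323043-116323292, minus strand, and held none of the motifs searched.
Cyp2j4: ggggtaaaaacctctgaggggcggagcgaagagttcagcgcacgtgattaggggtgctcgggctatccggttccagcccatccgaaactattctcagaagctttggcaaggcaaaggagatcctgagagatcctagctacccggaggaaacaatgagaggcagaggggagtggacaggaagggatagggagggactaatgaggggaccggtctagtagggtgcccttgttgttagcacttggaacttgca

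Sequence motifs, 6 in number, were searched on both strands in these windows of 250 bases. The search covered 24 of 29 tested P450 symbols and all 33469 RefSeq windows. Cyp2c13 was left out by choice, because its tested entry has other neighbours than RefSeq's Cyp2c13. The other symbols left out had no window under their name. The nuclear receptor half-site AGGTCA was in 9 of the 24 and in 14.1% of all windows. Its direct repeat with 1 base of any kind between the copies, which contains the half-site and is the form that PPAR alpha binds, was in 0 of the 24 and in 0.0508% of all. CAAAGTCCA, as bound by HNF4, was in 0 of the 24 and in 0.338% of all. GTTAAT, the half-site of HNF1, was in 2 of the 24, Cyp4f1 and Cyp2d2, and in 6.45% of all. GCGTG, the core that the dioxin receptor AHR binds, was in 7 of the 24 and in 25.9% of all, and TATAAA was in 5 of the 24 and in 12.9% of all. A match describes the letters of a window and is not a bound site.

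Of the 26 P450 entries of the Cyp1, Cyp2 and Cyp3 families that oxidize mainly drugs and foreign compounds, 9 were tested. Of these 3 rose and none fell (33.3% called, near the 28.5% of all tested genes), so the share is no result about them. Cyp2f4, a lung-type P450 of the rat that activates naphthalene, had the largest rise of all P450 genes. It stood at 2.69, 2.32, 1.98, 3.46 and 2.52 FPKM in Kcnj16_m1 libraries 1 to 5, against 0.662, 0.853, 1.09, 0.373 and 0.517 FPKM in SS_WT libraries 1 to 5. The lowest Kcnj16_m1 library lay well above the highest SS_WT library. The mean was 3.71 times higher in Kcnj16_m1, and the log2 difference was 1.38 ± 0.18 (SE; limma adjusted p = 0.000558, called under all 21 alternatives, between 1.08 and 1.91). At 597 reads over the 10 libraries its level was low.

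The Cyp2d genes, relatives of the human drug oxidase CYP2D6, sit side by side on chromosome 7 and summed to 209 ± 5.22 FPKM in Kcnj16_m1 and 155 ± 26.2 FPKM in SS_WT. Cyp2d2, which holds most of that sum, stood at 167, 159, 155, 167 and 173 FPKM in Kcnj16_m1 libraries 1 to 5, against 133, 123, 91.9, 129 and 113 FPKM in SS_WT libraries 1 to 5. Its groups did not overlap and it rose by 0.49 ± 0.09 on the log2 scale (SE; limma adjusted p = 0.00336). Cyp2d4 rose by 0.59 ± 0.11 (SE; limma adjusted p = 0.00279), with 12.2 to 14.1 FPKM in Kcnj16_m1 and 7.01 to 10.4 FPKM in SS_WT. Cyp2d5 averaged 23.4 ± 4.28 FPKM in Kcnj16_m1 and 17.9 ± 5.11 FPKM in SS_WT and did not pass (limma adjusted p = 0.172). Cyp2d3, chosen after its values were seen, stood at 9.83, 11.0, 8.16, 8.16 and 6.75 FPKM in Kcnj16_m1 libraries 1 to 5, against 11.0, 11.0, 2.60, 13.8 and 12.5 FPKM in SS_WT libraries 1 to 5. SS_WT library 3 was its lowest library by far. With all libraries its difference was -0.05 (limma adjusted p = 0.935), and without SS_WT library 3 it was -0.45 and was called lower (adjusted p = 0.0275). The windows before the starts of Cyp2d3 and Cyp2d5 share an unbroken run of 112 bases. These bases lie outside the transcripts, whose sequences were not compared. How well reads of the 2 genes can be told apart was not tested. The last 100 bases of each window are shown for comparison, from RefSeq on GRCr8, Cyp2d3 at chr7:115802143-115802242 and Cyp2d5 at chr7:115784488-115784587, both on the minus strand, with capitals at TTTATA, which reads TATAAA on the opposite strand.
Cyp2d3: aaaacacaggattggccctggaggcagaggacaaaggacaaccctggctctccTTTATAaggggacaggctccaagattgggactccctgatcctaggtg
Cyp2d5: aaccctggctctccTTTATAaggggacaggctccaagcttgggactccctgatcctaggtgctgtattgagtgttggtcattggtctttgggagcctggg

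Cyp2e1, the ethanol-inducible P450, averaged 153 ± 10.2 FPKM in Kcnj16_m1 and 151 ± 31.8 FPKM in SS_WT (difference 0.04, 95% interval -0.23 to 0.31, limma adjusted p = 0.833). It overlaps Syce1 on the opposite strand in the table, and the library strand is not given, so their reads cannot be told apart. Cyp2s1, a form inducible through AHR, averaged 5.89 ± 0.620 FPKM in Kcnj16_m1 and 4.90 ± 1.51 FPKM in SS_WT (limma adjusted p = 0.296). Cyp2t1, which overlaps Egln2 on the opposite strand, averaged 7.33 ± 0.691 FPKM in Kcnj16_m1 and 6.34 ± 0.546 FPKM in SS_WT (limma adjusted p = 0.0824).

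Cyp1a1, a classical target gene of AHR, had the largest log2 difference of the tested P450 genes and did not pass. It stood at 1.17, 1.47, 0.882, 0.974 and 1.09 FPKM in Kcnj16_m1 libraries 1 to 5, against 9.23, 9.89, 0.229, 13.1 and 7.25 FPKM in SS_WT libraries 1 to 5. Every SS_WT library but library 3 was above all Kcnj16_m1 libraries, and library 3 was below all of them. The log2 difference was -1.90 ± 0.66 (SE; 95% interval -3.36 to -0.44, limma adjusted p = 0.0527). Without SS_WT library 3 it was -2.66 and was called (adjusted p = 1.79e-05), and it was called under 5 of 21 alternatives in all. Cyp1b1, another AHR target, lay under the filter and was chosen after its values were seen. It stood at 0.0237, 0.0857, 0.0282, 0.0264 and 0.142 FPKM in Kcnj16_m1 libraries 1 to 5, against 0.503, 0.920, 1.43, 0.183 and 0.685 FPKM in SS_WT libraries 1 to 5. Its groups did not overlap, and SS_WT library 3 was here the highest of its group. Fitted with no filter on low values, Cyp1b1 was lower by limma (difference -1.07, adjusted p = 0.0120). The transcript of the receptor itself, Ahr, averaged 7.31 ± 0.955 FPKM in Kcnj16_m1 and 6.05 ± 0.304 FPKM in SS_WT (limma adjusted p = 0.0544).

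**Figure D3:**
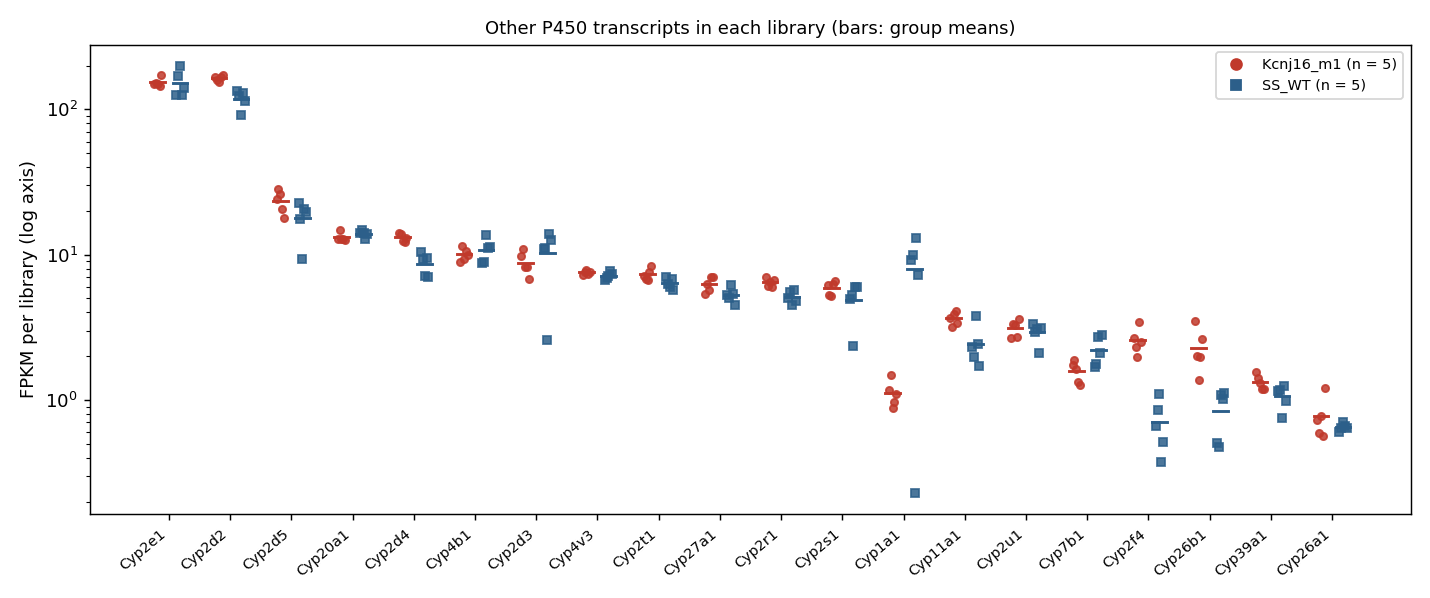
FPKM of the 20 other P450 genes tested, in each of 5 Kcnj16_m1 and 5 SS_WT libraries, on a log axis with bars at the group means. Cyp2f4, Cyp26b1, Cyp2d2, Cyp2d4 and Cyp2r1 separate the groups with Kcnj16_m1 above, and for Cyp1a1 a single SS_WT library lies below every Kcnj16_m1 library while the other 4 lie above.

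Among enzymes of retinoids, sterols and vitamin D, Cyp26b1, which clears retinoic acid, rose. It stood at 3.51, 1.99, 1.36, 1.97 and 2.61 FPKM in Kcnj16_m1 libraries 1 to 5, against 0.502, 0.477, 1.07, 1.01 and 1.12 FPKM in SS_WT libraries 1 to 5. Groups did not overlap, and SS_WT libraries 1 and 2 were the lowest. The mean was 2.74 times higher in Kcnj16_m1, with a log2 difference of 1.05 ± 0.22 (SE; limma adjusted p = 0.00612, called under all 21 alternatives, between 0.78 and 1.45). Cyp26a1, the related enzyme and chosen after its values were seen, averaged 0.772 ± 0.257 FPKM in Kcnj16_m1 and 0.649 ± 0.0367 FPKM in SS_WT and did not pass (limma adjusted p = 0.518).

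Cyp11a1, the mitochondrial enzyme that cleaves the cholesterol side chain to begin steroid synthesis, rose by 0.53 ± 0.16 on the log2 scale (SE; limma adjusted p = 0.0266). It stood at 3.65, 3.17, 3.90, 4.12 and 3.39 FPKM in Kcnj16_m1 libraries 1 to 5, against 2.30, 1.97, 3.76, 2.44 and 1.72 FPKM in SS_WT libraries 1 to 5. SS_WT library 3 alone overlapped the Kcnj16_m1 range. The call was lost without Kcnj16_m1 library 1, 3 or 4 or SS_WT library 2 or 5 (adjusted p 0.0525 to 0.0641) and without SS_WT libraries 1 and 2 together (adjusted p = 0.107). Markers of the adjacent adrenal gland differed in level. The medulla marker Chga was listed at 0 in all 10 libraries. The cortex markers Star and Nr5a1 averaged 0.453 and 0.0135 FPKM in Kcnj16_m1 and 0.274 and 0.0108 FPKM in SS_WT. Mc2r, Hsd3b1 and the steroid P450 Cyp21a1, all under the filter, were named after their values were seen. Mc2r averaged 0.462 FPKM in Kcnj16_m1 and 0.316 FPKM in SS_WT. Hsd3b1 and Cyp21a1 went the other way, with 0.0244 and 0.143 FPKM in Kcnj16_m1 and 0.0964 and 0.256 FPKM in SS_WT. Of 12 adrenal markers, 2 were tested and neither passed. Mrap averaged 8.43 ± 1.56 FPKM in Kcnj16_m1 and 10.8 ± 3.28 FPKM in SS_WT, and Scarb1 averaged 4.84 ± 0.667 FPKM and 5.55 ± 0.881 FPKM. The list summed to 12.0 to 15.7 FPKM in Kcnj16_m1 and 13.0 to 18.9 FPKM in SS_WT, most of it Mrap and Scarb1. The part of adrenal RNA in the Cyp11a1 values was not tested.

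Sterol hydroxylases of other pathways did not pass. Cyp27a1, the mitochondrial sterol side-chain hydroxylase, averaged 6.28 ± 0.734 FPKM in Kcnj16_m1 and 5.27 ± 0.593 FPKM in SS_WT (limma adjusted p = 0.0854), and was called higher without SS_WT library 3 (difference 0.28, adjusted p = 0.0422). Cyp7b1, the oxysterol hydroxylase, averaged 1.57 ± 0.264 FPKM in Kcnj16_m1 and 2.21 ± 0.519 FPKM in SS_WT (difference -0.38, limma adjusted p = 0.0690). It was called lower without SS_WT library 1 (adjusted p = 0.0358) and without SS_WT libraries 1 and 2 together (adjusted p = 0.0182). Cyp39a1, another oxysterol hydroxylase, averaged 1.33 ± 0.162 FPKM in Kcnj16_m1 and 1.06 ± 0.194 FPKM in SS_WT (limma adjusted p = 0.139). Cyp8b1, which makes the precursor of cholic acid, lay under the filter and was chosen after its values were seen. It stood at 0.132, 0.0598, 0, 0 and 0.0610 FPKM in Kcnj16_m1 libraries 1 to 5, against 0.640, 0.519, 0.167, 0.751 and 0.617 FPKM in SS_WT libraries 1 to 5. The groups did not overlap on a total of 100 reads, and SS_WT library 3 was the lowest of its group. With no filter on low values Cyp8b1 was lower by limma (difference -0.89, adjusted p = 0.00490).

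Cyp2r1, which hydroxylates vitamin D in the first step of its activation, rose by 0.31 ± 0.07 on the log2 scale (SE; limma adjusted p = 0.0106). Its values were 5.96 to 7.04 FPKM in Kcnj16_m1 and 4.51 to 5.67 FPKM in SS_WT, without overlap, and it was called under all 21 alternatives. The orphan P450 Cyp20a1 averaged 13.2 ± 0.910 FPKM in Kcnj16_m1 and 13.9 ± 0.737 FPKM in SS_WT (95% interval of the difference -0.20 to 0.06). The fatty acid hydroxylases outside the arachidonate subfamilies did not pass. Cyp4b1 averaged 10.1 ± 1.03 FPKM in Kcnj16_m1 and 10.8 ± 2.05 FPKM in SS_WT (interval -0.34 to 0.18), and Cyp4v3 averaged 7.56 ± 0.239 FPKM in Kcnj16_m1 and 7.16 ± 0.410 FPKM in SS_WT (interval -0.04 to 0.19). For Cyp2u1, chosen after its values were seen, the means were 3.12 ± 0.407 FPKM in Kcnj16_m1 and 2.92 ± 0.475 FPKM in SS_WT.

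Of the 40 P450 entries under the filter, 7 had 0 reads in all libraries, 12 had 1 to 10 reads in all and 21 had more. Their highest mean over the 10 libraries was 0.437 FPKM, for Cyp4f17, and the highest single value was 1.43 FPKM, for Cyp1b1 in SS_WT library 3. Groups did not overlap for Cyp1b1, Cyp8b1 and one of the 2 Cyp3a9 entries (ENSRNOG00000046643, 47 reads in all), named after their values were seen, and all 3 were lower in Kcnj16_m1. Among all 18574 entries under the filter, 11086 of them listed at 0 throughout, 1.2% did not overlap with Kcnj16_m1 lower. Of the P450 entries under the filter, 28 had a value above 0 in Kcnj16_m1. Kcnj16_m1 library 2, the library with Alb, was the highest of its group for 14 and each other library for 2 to 5. Of all entries under the filter, 6394 had a value above 0 in Kcnj16_m1. Library 2 was the highest for 1574 of these and each other library for 1008 to 1306. Of the 14 P450 entries, 4 are named here, chosen after their values were seen. In Kcnj16_m1 library 2, Cyp1a2 stood at 0.272 FPKM, Cyp2c6v1 at 0.163 FPKM, Cyp2a3 at 0.144 FPKM and Cyp2b3 at 0.140 FPKM. The other Kcnj16_m1 libraries held at most 0.0531 FPKM. In SS_WT, Cyp2c6v1 reached 0.104 FPKM in library 2 and Cyp2b3 0.0859 FPKM in library 1, while Cyp1a2 and Cyp2a3 reached at most 0.0316 FPKM. Each of the 4 entries rests on 8 to 21 reads over the 10 libraries. Cyp2c11, which is abundant in male rat liver, was at 11.9 FPKM in Kcnj16_m1 library 2, within the range of its group. Within Kcnj16_m1, Cyp8b1 was highest in library 1, and Cyp2c7 and Cyp7a1 were at 0 in all 10 libraries. The part of liver RNA in these traces was not tested.

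P450 transcripts varied more between libraries of a genotype than genes at large. The median SD on the log2 scale over the 30 tested members was 0.161 in Kcnj16_m1 and 0.251 in SS_WT, against 0.113 and 0.157 over all tested genes. Without SS_WT library 3 the median in SS_WT was 0.172 for the members and 0.144 for all tested genes. SS_WT library 3 was the highest or lowest of its group for 19 of 30 members (63.3%) and for 48.8% of all genes. Kcnj16_m1 library 5 was so for 20 of 30 members (66.7%) and for 49.9% of all genes. Both libraries lay at the same end of their groups for 10 of 30 members (33.3%), against 11.2% of all genes. They were both highest for the Cyp4a2 entries, Cyp4a1, Cyp2e1 and Cyp26a1, and both lowest for Cyp2c11, Cyp2c13, Cyp4f1, Cyp2d3 and Cyp2d5. These libraries were picked out after the values were seen, and the shares are a description without a test.

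**Figure D4:**
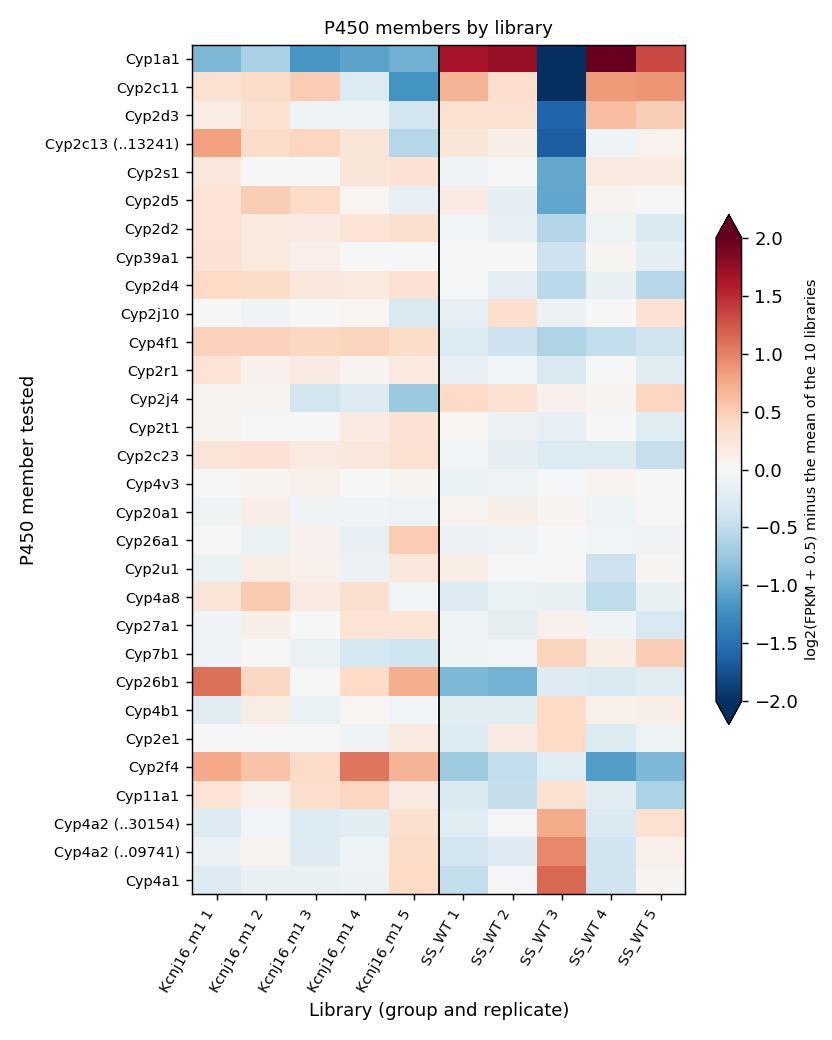
Log2(FPKM + 0.5) of the 30 tested P450 genes in each library, minus the mean of the 10 libraries, with Kcnj16_m1 libraries left of the line and SS_WT libraries right of it; colours are capped at -2 and 2. SS_WT library 3 is dark blue for Cyp1a1, Cyp2c11, Cyp2d3 and Cyp2c13. Both SS_WT library 3 and Kcnj16_m1 library 5 are red for Cyp4a1 and both Cyp4a2 entries, and Kcnj16_m1 library 5 is blue for Cyp2c11.

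The log2 value of SS_WT library 3 minus the mean of the other SS_WT libraries was -3.80 for Cyp1a1 and -3.17 for Cyp2c11, ranks 3 and 4 from the lowest among 13971 genes. For Cyp4a1 it was 1.37, rank 66 from the highest. Of 11 markers of the straight proximal tubule, Kcnj16_m1 library 5 was the lowest of its group for 9 and SS_WT library 3 for 7, while Acsm3, Slc27a2 and Slc7a9 were not low in SS_WT library 3. Slc7a13, a transporter of the last, straight segment of the proximal tubule, stood at 152 FPKM in Kcnj16_m1 library 5, the lowest of its group, and at 70.6 FPKM in SS_WT library 3, against 341 to 469 FPKM in the other SS_WT libraries. The sum of these markers, most of it Kap and Slc3a1, was 3847 to 5634 FPKM in Kcnj16_m1 and 2861 to 6223 FPKM in SS_WT, with the lowest values in the same 2 libraries. The part of these transcripts in the P450 values was not tested.

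**Figure D5:**
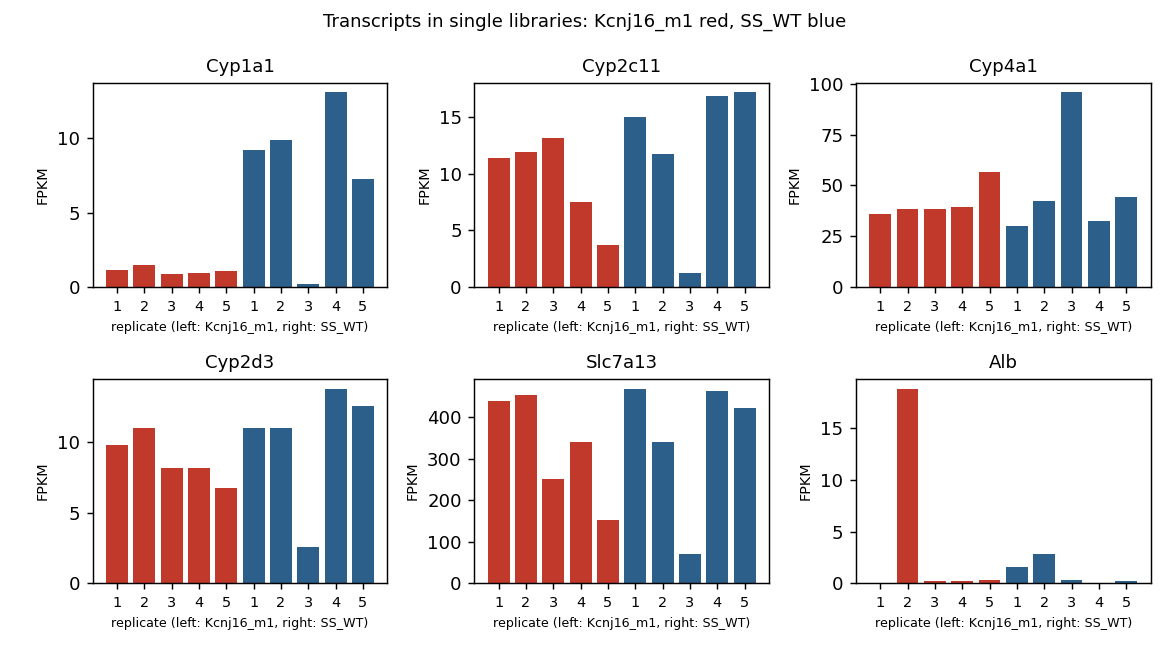
FPKM of Cyp1a1, Cyp2c11 and Cyp4a1 above and of Cyp2d3, Slc7a13 and Alb below, in Kcnj16_m1 libraries 1 to 5 (red, left) and SS_WT libraries 1 to 5 (blue, right), with bars that start at 0. Cyp1a1, Cyp2c11, Cyp2d3 and Slc7a13 are lowest in SS_WT library 3, where Cyp4a1 is highest, and Alb is high in Kcnj16_m1 library 2 alone.

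Genes that work with P450 enzymes were read from lists chosen with earlier results of these data known. Of 14 redox partners and haem genes tested, 3 were higher and 1 lower (28.6%, against 28.5% of all tested genes), with a median difference of -0.01, so the share is no result about them. P450 reductase, Por, averaged 67.8 ± 10.4 FPKM in Kcnj16_m1 and 70.6 ± 12.7 FPKM in SS_WT and did not pass (limma adjusted p = 0.819). The mitochondrial cytochrome b5, Cyb5b, was higher, with 98.3 ± 1.86 FPKM in Kcnj16_m1 and 75.9 ± 9.54 FPKM in SS_WT (limma adjusted p = 0.00528). Adrenodoxin, Fdx1, was higher as well, with 73.7 ± 3.50 FPKM in Kcnj16_m1 and 64.0 ± 4.19 FPKM in SS_WT (limma adjusted p = 0.0201), as was Fdx2, listed as Fdx1l. The haem-degrading Hmox1 was lower, with 3.70 ± 0.430 FPKM in Kcnj16_m1 and 7.06 ± 2.21 FPKM in SS_WT (limma adjusted p = 0.0128).

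Arachidonic acid is also released, used and cleared by other enzymes, and of 20 such genes tested 4 were higher and 5 lower (45% called, against 28.5% of all), with a median of 0.03. Ptgs2, the inducible cyclooxygenase that competes for the fatty acid, averaged 4.30 ± 0.331 FPKM in Kcnj16_m1 and 1.20 ± 0.0456 FPKM in SS_WT (limma adjusted p = 1.47e-06). Prostaglandin D synthase, Ptgds, fell to 34.3 ± 5.38 FPKM in Kcnj16_m1, against 118 ± 35.1 FPKM in SS_WT (limma adjusted p = 0.000198). Thromboxane synthase, Tbxas1, which is itself a P450 by structure but not by symbol, averaged 2.14 ± 0.247 FPKM in Kcnj16_m1 and 3.31 ± 0.367 FPKM in SS_WT (limma adjusted p = 0.00256). Ptges3 was lower too, with 74.4 ± 3.61 FPKM in Kcnj16_m1 and 91.8 ± 6.17 FPKM in SS_WT (limma adjusted p = 0.00331).

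Of 23 transcription factors tested that control P450 genes, mostly nuclear receptors, 7 were higher and 1 lower (34.8% called, against 28.5% of all), with a median of 0.09. Stat5b, which carries the growth hormone signal behind male-type P450 genes in rodent liver, averaged 11.0 ± 0.459 FPKM in Kcnj16_m1 and 8.31 ± 0.693 FPKM in SS_WT (limma adjusted p = 0.00180). Rxra, the partner of many nuclear receptors, averaged 40.8 ± 2.69 FPKM in Kcnj16_m1 and 32.6 ± 2.54 FPKM in SS_WT (limma adjusted p = 0.00536). The receptor Ppara averaged 11.9 ± 1.12 FPKM in Kcnj16_m1 and 13.0 ± 2.62 FPKM in SS_WT and did not pass (limma adjusted p = 0.565). Of 30 PPAR alpha target genes tested, 8 were higher and 2 lower (33.3% called, near the 28.5% of all), with a median of 0.03. They include Acot12, an acetyl-CoA hydrolase, at 15.4 ± 1.43 FPKM in Kcnj16_m1 and 7.43 ± 1.03 FPKM in SS_WT (limma adjusted p = 0.000126), and Acaa1a, a peroxisomal thiolase, at 147 ± 14.7 FPKM in Kcnj16_m1 and 90.3 ± 7.96 FPKM in SS_WT (limma adjusted p = 0.000295).

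Cell type markers were counted in the same fit, where 28.5% of all tested genes were called. Of 17 proximal tubule markers 8 were higher and 1 was lower (52.9% called), with a median difference of 0.22. Of 11 straight-segment markers 3 were higher and none was lower, with a median of -0.01. That share, 27.3%, lay near that of all genes and is no result about them. Of 17 tubular injury markers tested 14 were lower and none higher (82.4% called), and of 15 macrophage markers tested 12 were lower and none higher (80% called). The macrophage list summed to 288 to 349 FPKM in Kcnj16_m1 and 404 to 695 FPKM in SS_WT. Of 7 hepatocyte markers tested 1 was higher and 4 were lower (71.4% called), the lower ones being Fga, Fgb, Fgg and Apoc3. Alb, Ttr, Serpina1 and Ahsg, chosen after their values were seen, lay under the filter and were highest in Kcnj16_m1 library 2. Of 6 adipocyte markers tested 1 was higher and 3 were lower (66.7% called). The part of these shifts in the P450 differences was not tested.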

How the data were processed

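Polyadenylated RNA of 10 kidney cortex libraries was analysed, grouped by the genotype labels. The submitters' processing notes name featureCounts 1.5.0-p3 and StringTie 1.3.3b, HISAT2 2.0.5, and fastp. No label gives the genome build, the annotation or the library strand. The authors deposited 1 FPKM value per gene and library, and no per-sample column was left unused. FPKM times gene length gave whole reads within 0.05 reads for 100% of values, which gives the depth. Replicates differed by a chi-square per gene of 6.58 to 39.3 on these reads, more than sampling noise gives. The labels do not state separate animals, and the spread that p-values rest on may then be technical.

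On the scale log2(FPKM + 0.5), limma 3.58.1 (R 4.3.3) was run with a group term and a variance trend on genes reaching 0.5 FPKM in 5 or more libraries. Its two-sided p-values were corrected over 13971 genes (Benjamini-Hochberg, threshold 0.05). The script was tested on simulated data. Errors given as ± are SD over 5 libraries, or SE where said. Members and lists were chosen with earlier results of these data known. Of 200 list entries, 196 matched a symbol, 1 a synonym and 3 none. Named were all tested arachidonate members, the 14 other members with the smallest adjusted p, the 4 most abundant that did not pass, and up to 4 genes a list. Where another gene is named the text says so, and values were also known when these were chosen: Por, Ppara, Ahr, Slc7a13, Slc7a9, Slc3a1, Kap, Alb, Cyp2c7, Cyp7a1, Star, Nr5a1 and Chga. Alternatives were pseudocounts of 0.1 and 1, no filter, at least 1 FPKM, median-of-ratios and quantile scaling, no variance trend, voom on recovered reads and libraries left out. Promoter windows came from RefSeq on GRCr8.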

Additional observations from a re-analysis of the deposited data

Results flagged for a closer look

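Among 64 groups of 5 libraries (32 members in 2 genotypes), 6 held 1 library far from the other 4, where chance alone gives about 1 in 20. The 32 members include some outside the 30 tested for a difference. Members flagged for the same library are not independent, so the 6 cannot be set against that rate as a test. SS_WT library 3 accounts for 4 of them. It was the highest SS_WT library for Cyp4a1, at 95.8 FPKM (next 44.4 FPKM), and for the second Cyp4a2 entry, at 239 FPKM (next 132 FPKM). For Cyp2d3 it was the lowest, at 2.60 FPKM (next 11.0 FPKM), as for Cyp2c13, at 12.0 FPKM (next 36.6 FPKM). The other 2 are Kcnj16_m1 libraries. Library 5 was the highest for Cyp4a1, at 56.7 FPKM (next 39.6 FPKM), and library 2 was the highest for Cyp20a1, at 14.8 FPKM (next 12.9 FPKM).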

How the results depend on the processing

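Leaving out 1 library at a time gave 8 to 13 called P450 genes (10 with all), 8 to 10 higher and 0 to 3 lower, and 3013 to 4476 called genes overall (3988 with all). None was lower without Kcnj16_m1 library 3 or 4 or SS_WT library 2 or 5, and 3 were lower without SS_WT library 3. The number lower was 2 with a pseudocount of 1 FPKM (Cyp2j4 and Cyp1a1) and with at least 1 FPKM. It was also 2 with no filter, but there Cyp8b1 and Cyp1b1 were called and Cyp2j4 was not. It was 3 without SS_WT library 3 together with Kcnj16_m1 library 5 or 2, settings chosen after seeing the data. The median difference of the arachidonate members ran from -0.058 to 0.16 over the libraries left out, and was 0.092 without SS_WT library 3 and Kcnj16_m1 library 5 and 0.16 without SS_WT library 3 and Kcnj16_m1 library 2. That of the other members was 0.12 and 0.15 in the same 2 settings and 0.021 with no filter, where that of all members was 0.019. With voom on recovered reads, 10 P450 genes and 3882 genes overall were called. The other alternatives kept these counts within 1.5 times.

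Sign changes were limited to members that did not pass with all libraries, and none of the reversed values was called. With 1 library left out, the difference of the second Cyp4a2 entry (ENSRNOG00000009741) ran from -0.11 to 0.23, Cyp4a1 from -0.25 to 0.16, Cyp2c11 from -0.75 to 0.17, Cyp2d3 from -0.45 to 0.10, Cyp2e1 from -0.023 to 0.14, Cyp4b1 from -0.14 to 0.012 and Cyp2u1 from -0.0072 to 0.13. Without SS_WT libraries 1 and 2, whose title numbers lie apart, Cyp2c11 was at 0.19 and Cyp2d3 at 0.14. Without SS_WT library 3 and Kcnj16_m1 library 5 the second Cyp4a2 entry was at 0.14, Cyp4a1 at 0.049 and Cyp4b1 at 0.015, and without SS_WT library 3 and Kcnj16_m1 library 2 the first 2 were at 0.21 and 0.19. The cause was not tested. No paired analysis was possible because the labels give no replicate numbers, litters or batches that pair libraries of the 2 genotypes. Depth limits the 40 entries under the filter, most of which rest on few reads.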
